A study of Homo sapiens with 16 samples.

Results

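The 40 genes described here encode the machinery of mitosis: the kinases, cyclins and phosphatases that start it, the chromosomal passenger proteins, the spindle checkpoint, the anaphase-promoting complex and its targets, kinetochore and centromere proteins, mitotic kinesins, and other proteins of the spindle, the chromosomes and the cleavage furrow. The genes were listed by these known roles, with earlier results of these data known. Each was matched through the platform annotation to probe sets that carry 1 gene, and the probe set with the highest mean intensity over the 16 arrays stood for it. All 40 had such a probe set, of 19775 genes in all. All 40 were also among the 12305 genes tested, which exceeded the 60th percentile of their array on at least 2 arrays. For 39 of them this held on at least 8 arrays, while INCENP passed on 2 and had intensities of 6.7 to 30.1 throughout, so that its differences are those of a dim probe set.

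The samples are 8 human B-cell lines, studied as models of mantle cell lymphoma. Each was cultured for 20 h with AFN700 at 5 uM, an inhibitor of the kinase IKKbeta, which switches on the classical NF-kB pathway, or with the solvent DMSO at 0.025%, and gave 1 Affymetrix array per treatment. By the labels, REC-1 and SP49 are sensitive to "stn" and ibrutinib, an inhibitor of the B-cell receptor kinase BTK, and GRANTA-519, HBL-2, JVM-2, JVM-13, Maver-1 and Z-138 are insensitive. Thus the AFN700 arrays comprise 2 sensitive and 6 insensitive lines, and so do the DMSO arrays. GRANTA-519 alone was grown in DMEM, against RPMI for the other 7 lines, both with 10% fetal bovine serum, so that line and medium cannot be told apart. The treated JVM-13 array is titled AFN700, but its treatment field reads AFN701, and it was used as the AFN700 array of its line. Since a line has 1 array per treatment, the line is the replicate, the values of a single line carry no error of their own, and precision is limited by how few arrays there are.

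Mitosis begins when CDK1, bound to a B-type cyclin, is freed of its inhibitory phosphates by CDC25 phosphatases. Chromosomes attach to the spindle through kinetochores, the checkpoint kinases hold back the anaphase-promoting complex until every chromosome is attached, and separase then cuts the cohesin that joins sister chromatids. RNA of most of these genes accumulates in the G2 phase and in mitosis, when the factors FOXM1 and B-MYB act on their promoters, and it is repressed in resting cells by the DREAM complex. Its level in a culture is widely used as a measure of proliferation. Arrays of whole cultures measure all cells together, so fewer cells in mitosis and less RNA per cell cannot be told apart.

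Promoters of such genes are known for CCAAT boxes, bound by the factor NF-Y, and for the cell cycle genes homology region, in its common form TTTGAA or TTCGAA, through which the DREAM complex and FOXM1 act. RefSeq promoters (GRCh38.p14) were given for 33 of the 40 genes, not for FOXM1, AURKA, BIRC5, TPX2, BUB3, TTK and UBE2C. Searched on both strands of the 250 bases upstream of the start, TTTGAA or TTCGAA occurred in 16 of the 33, against 14.6% of all 27305 promoters in the table. CCAAT occurred in 24 of the 33, against 33.0% of all promoters, and the letters of both in 14, against 5.24%. The 2 motifs share no letters at the places printed here. The 120 bases upstream of the start are printed below for 6 genes that hold both motifs, ordered by their difference in GRANTA-519, with CCNB1, which holds CCAAT alone, and CDC25B, which holds neither. Capitals mark the motif letters, on whichever strand they lie.
ESPL1 (chr12:53268179-53268298, plus strand): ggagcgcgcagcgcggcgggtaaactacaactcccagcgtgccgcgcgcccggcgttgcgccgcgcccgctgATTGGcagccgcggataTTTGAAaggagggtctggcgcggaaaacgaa
CDC20 (chr1:43358861-43358980, plus strand): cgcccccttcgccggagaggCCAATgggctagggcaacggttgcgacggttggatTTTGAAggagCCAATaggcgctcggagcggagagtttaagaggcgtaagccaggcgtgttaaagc
PLK1 (chr16:23678769-23678888, plus strand): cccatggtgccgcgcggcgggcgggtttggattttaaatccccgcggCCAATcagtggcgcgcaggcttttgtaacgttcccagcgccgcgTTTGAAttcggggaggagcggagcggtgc
CCNB2 (chr15:59105026-59105145, plus strand): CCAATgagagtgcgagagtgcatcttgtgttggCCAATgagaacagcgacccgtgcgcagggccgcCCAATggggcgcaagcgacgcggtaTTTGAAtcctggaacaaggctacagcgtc
PRC1 (chr15:90994536-90994655, minus strand): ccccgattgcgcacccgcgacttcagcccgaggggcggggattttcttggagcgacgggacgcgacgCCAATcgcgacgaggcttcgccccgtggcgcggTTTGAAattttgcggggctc
KIF11 (chr10:92593010-92593129, plus strand): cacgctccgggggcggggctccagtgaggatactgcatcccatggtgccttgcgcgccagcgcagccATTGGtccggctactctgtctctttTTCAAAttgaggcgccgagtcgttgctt
CCNB1 (chr5:69167030-69167149, plus strand): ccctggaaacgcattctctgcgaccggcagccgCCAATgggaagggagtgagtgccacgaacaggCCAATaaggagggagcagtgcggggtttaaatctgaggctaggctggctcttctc
CDC25B (chr20:3786831-3786950, plus strand): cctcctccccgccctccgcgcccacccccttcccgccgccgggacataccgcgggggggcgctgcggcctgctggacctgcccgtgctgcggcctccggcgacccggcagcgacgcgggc
In 5 of these 6 genes the TTTGAA letters, or TTCAAA on the printed strand, lie nearer the start than every CCAAT, and in CDC20 they lie between a pair of CCAAT boxes. Over all 14 genes with both motifs that order held in 9. The match of letters is a description of these windows and not a binding site.

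The 16 arrays shared 1 trimmed mean as deposited. Of the 16, 15 had a median log2 level between 7.82 and 8.02 over the genes tested, and JVM-13 with DMSO was the exception at 7.25. The actin probe sets gave a ratio of the 3' to the 5' end, a sign of RNA quality, of 16.7 with AFN700 and 1.90 with DMSO in HBL-2, the largest gap between the arrays of a line. Maver-1 had the highest ratios of all lines, 18.8 with AFN700 and 10.3 with DMSO. In GRANTA-519 that ratio was 2.72 with AFN700 and 2.78 with DMSO. Of the markers of other cell types, CD28 was at 584 with AFN700 and 594 with DMSO in GRANTA-519, while the other 7 T-cell markers there lay between 0.6 and 16.1 with AFN700 and between 0.1 and 8.9 with DMSO. The 7 fibroblast markers summed to 181 with AFN700 and 684 with DMSO in GRANTA-519 (19.9 to 343 with AFN700 and 31.2 to 684 with DMSO over the 8 lines), most of it from COL1A1 at 122 and 614, with LUM at 0.1 and 3.9. The 8 myeloid markers summed to 156 with AFN700 and 278 with DMSO there, and the 6 epithelial markers to 93.1 and 84.1. Other lines showed such markers too, here with AFN700 and then with DMSO. CD3D was at 164 and 141, CD3E at 147 and 89.1 and CD8A at 74.0 and 83.5 in REC-1. CD8A was at 115 and 180 in SP49, and EPCAM at 357 and 333 in Maver-1. The part of these markers in the results was not tested. CCND1 and SOX11, the markers of mantle cell lymphoma, were at 2.3 and 0.3 with AFN700 and at 4.8 and 1.4 with DMSO in JVM-13, and SOX11 was at 0.6 and 0.1 in JVM-2, so JVM-13 showed neither and JVM-2 no SOX11 above background, while the 9 B-cell markers summed to at least 11571 with AFN700 and 10518 with DMSO in every line.

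In GRANTA-519 the mitosis genes were lower with AFN700 almost without exception, and in no other line was their median as low. Log2 differences of AFN700 minus DMSO in GRANTA-519 had a median of -0.77 over the 40 genes, against -0.05 over all genes tested. The difference was below 0 for 39 of the 40, against 55.0% of all genes, and 9 of the 40 were at least 2-fold lower, against 6.07% of all genes. The sizes ran from -2.09 in ESPL1 to 0.00 in INCENP.

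**Figure D1:**
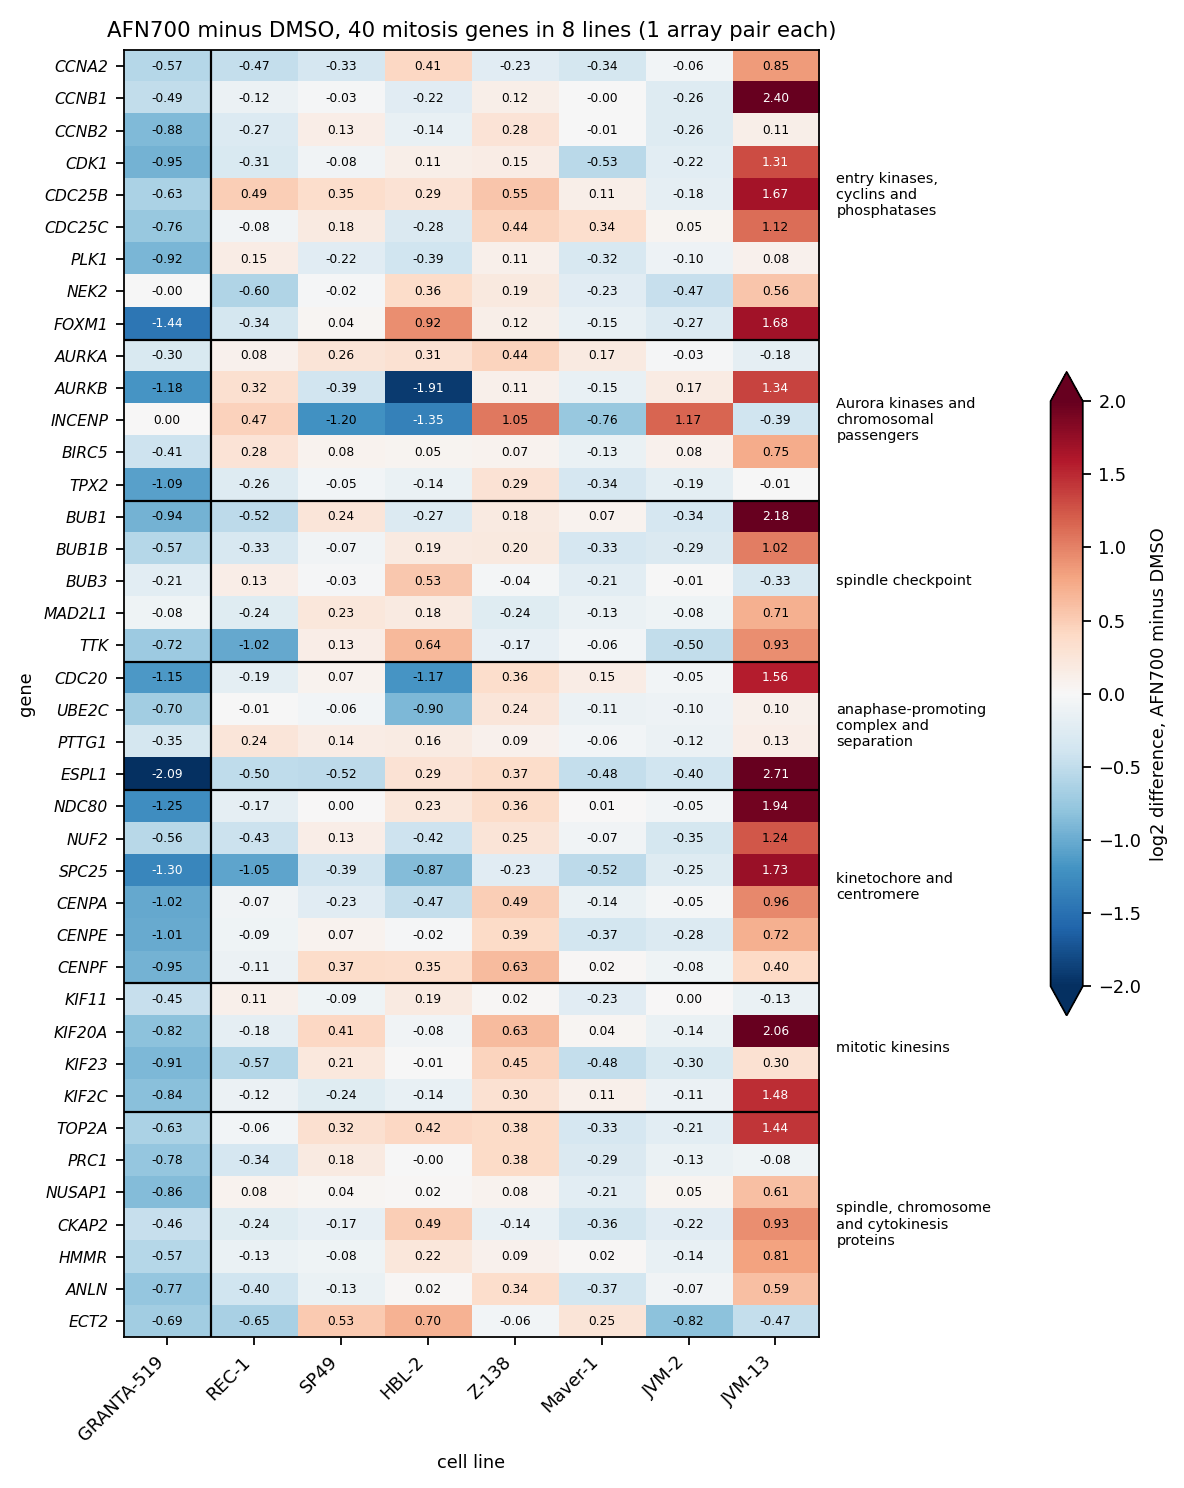
Log2 difference in intensity, AFN700 minus DMSO, for the 40 genes (rows, by role) in 8 cell lines (columns), 1 array pair each; blue is lower and red higher with AFN700. The GRANTA-519 column is blue in all roles, down to -2.09 in ESPL1, and the JVM-13 column is mostly red, up to 2.71 in the same gene.

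The other 7 lines showed no such common direction. The median over the 40 genes was -0.17 in REC-1, with 30 genes below 0 (45.1% of all genes tested), 0.02 in SP49, with 19 below 0 (44.3%), and 0.04 in HBL-2, with 18 below 0 (39.1%). It was 0.22 in Z-138, where only 7 of the 40 were below 0 (45.1% of all genes), -0.14 in Maver-1, with 29 below 0 (49.0%), and -0.13 in JVM-2, with 34 below 0 (48.5%). Thus Z-138 leaned the opposite way to REC-1, Maver-1 and JVM-2, by sizes well under those in GRANTA-519. Few of the 40 were at least 2-fold lower: TTK and SPC25 in REC-1 (1.02% of all genes), INCENP in SP49 (1.32%), AURKB, INCENP and CDC20 in HBL-2 (4.46%), and none of the 40 in JVM-2 (1.07%), JVM-13 (7.01%), Maver-1 (1.68%) or Z-138 (1.06%). INCENP alone was at least 2-fold higher in Z-138 (1.68% of all genes) and in JVM-2 (0.926%).

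JVM-13 leaned the other way. Its median over the 40 genes was 0.83, with 7 below 0 (38.7% of all genes tested) and 16 at least 2-fold higher, against 25.7% of all genes, whose median there was 0.27. With the arrays centred on their medians, the median over the 40 genes in JVM-13 was 0.16, with 16 below 0 (63.7% of all genes) and 8 at least 2-fold higher (11.6%), beside a median of -0.39 for all genes. Centring left the median in GRANTA-519 at -0.66, with 37 genes below 0 (44.2% of all genes) and 6 at least 2-fold lower (4.66%). In the remaining lines the centred medians were -0.16 in REC-1, 0.00 in SP49, -0.17 in HBL-2, -0.13 in JVM-2, -0.15 in Maver-1 and 0.21 in Z-138.

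**Figure D2:**
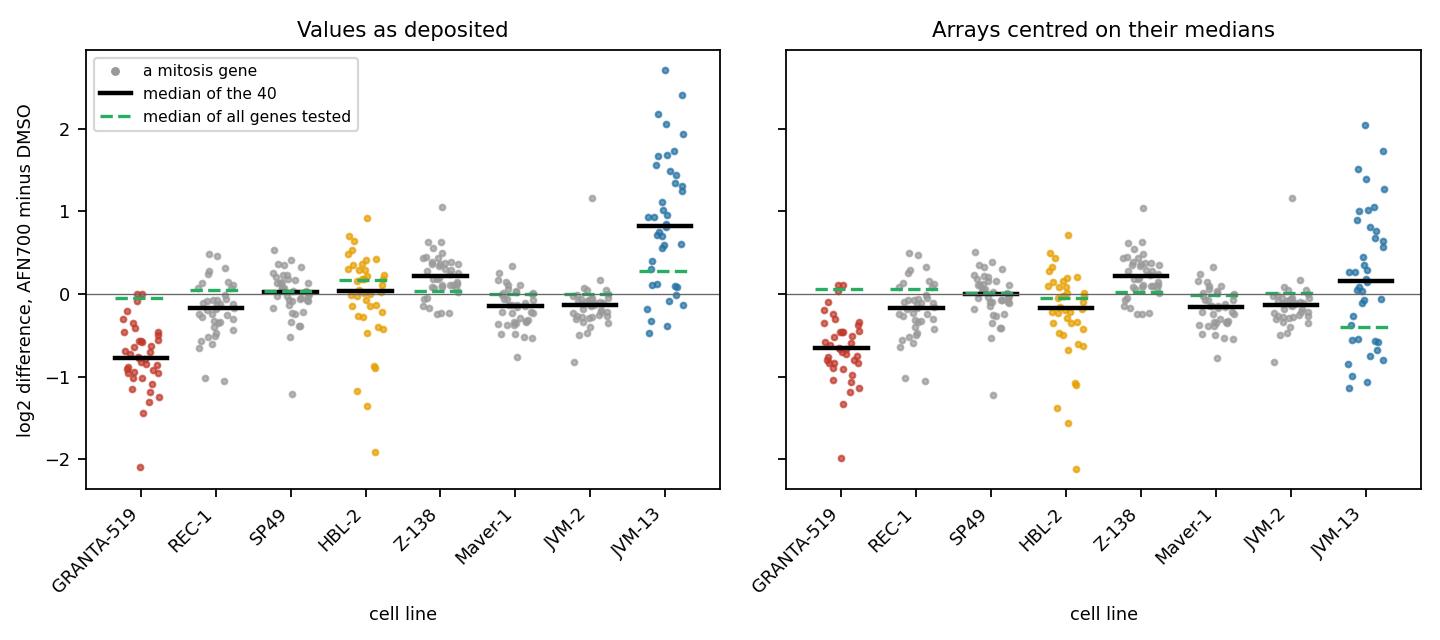
Log2 difference, AFN700 minus DMSO, of the 40 genes (points) in each line, with the median of the 40 (black bar) and of all 12305 genes tested (green dashes), for values as deposited (left) and with arrays centred on their medians (right). The GRANTA-519 median is -0.77 as deposited and -0.66 centred, and the JVM-13 median moves from 0.83 to 0.16.

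Among the 9 genes of mitotic entry the median difference in GRANTA-519 was -0.76, and in the other lines it ran from -0.27 in REC-1 to 1.12 in JVM-13. CCNB1, cyclin B1, which activates CDK1, had intensities with AFN700 of 1316 in GRANTA-519, 1916 in REC-1, 2176 in SP49, 2039.6 in HBL-2, 1677 in JVM-2, 2053 in JVM-13, 1734 in Maver-1 and 1997 in Z-138. With DMSO, CCNB1 was at 1851 in GRANTA-519, 2075 in REC-1, 2214 in SP49, 2376 in HBL-2, 2012 in JVM-2, 386 in JVM-13, 1736 in Maver-1 and 1837 in Z-138. The low values are those of GRANTA-519 with AFN700 and, far below all others, JVM-13 with DMSO, and the remaining 14 arrays lay between 1677 and 2376. CDK1, the kinase that drives entry, was with AFN700 at 889 in GRANTA-519, 1562 in REC-1, 1918 in SP49, 2184 in HBL-2, 1520.5 in JVM-2, 2266 in JVM-13, 1343 in Maver-1 and 1521 in Z-138. With DMSO, CDK1 was at 1722 in GRANTA-519, 1933 in REC-1, 2022 in SP49, 2021 in HBL-2, 1767 in JVM-2, 913 in JVM-13, 1945 in Maver-1 and 1368 in Z-138. Again the treated GRANTA-519 and the untreated JVM-13 arrays were lowest, at 889 and 913, and all others were at 1343 or more. The log2 difference of CDK1 was -0.95 in GRANTA-519 and -0.53 to 1.31 in the other 7 lines.

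PLK1, the polo-like kinase that matures centrosomes and feeds back on entry, read with AFN700 111 in GRANTA-519, 239 in REC-1, 172 in SP49, 278 in HBL-2, 180.1 in JVM-2, 209.6 in JVM-13, 117 in Maver-1 and 201 in Z-138. With DMSO, PLK1 read 213 in GRANTA-519, 216 in REC-1, 201 in SP49, 366 in HBL-2, 194 in JVM-2, 198 in JVM-13, 147 in Maver-1 and 186 in Z-138. GRANTA-519 had the lowest AFN700 level, close to that of Maver-1, which was also the lowest line with DMSO. FOXM1, the transcription factor of G2 and mitosis genes, read with AFN700 320.5 in GRANTA-519, 434 in REC-1, 963 in SP49, 1109 in HBL-2, 628 in JVM-2, 852 in JVM-13, 779.9 in Maver-1 and 803 in Z-138. With DMSO, FOXM1 read 874 in GRANTA-519, 552 in REC-1, 935 in SP49, 583 in HBL-2, 759 in JVM-2, 263 in JVM-13, 868 in Maver-1 and 741 in Z-138. The level of FOXM1 in GRANTA-519 was the second highest of 8 with DMSO and the lowest with AFN700, a difference of -1.44, while HBL-2 was at 0.92. Of the other entry genes, cyclin B2, CCNB2, was at -0.88 in GRANTA-519, CDC25C at -0.76, CDC25B at -0.63 and the S and G2 phase cyclin CCNA2 at -0.57. NEK2, a centrosome kinase, did not share this, with 474 with AFN700 and 475.0 with DMSO in GRANTA-519, though its further probe set was at -0.72.

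The 5 genes of Aurora kinases and chromosomal passengers had a median difference of -0.41 in GRANTA-519 and spread widely. AURKA, the Aurora kinase of the spindle poles, read with AFN700 1508 in GRANTA-519, 2047 in REC-1, 2406 in SP49, 2352 in HBL-2, 1832 in JVM-2, 2221 in JVM-13, 2063 in Maver-1 and 2091 in Z-138. With DMSO, AURKA read 1864 in GRANTA-519, 1938 in REC-1, 2015 in SP49, 1901 in HBL-2, 1867 in JVM-2, 2512 in JVM-13, 1831 in Maver-1 and 1543 in Z-138. Its lowest level was the AFN700 array of GRANTA-519, next to the DMSO array of Z-138 at 1543, and JVM-13 was here the highest of 8 with DMSO. BIRC5, survivin, a subunit of the passenger complex, read with AFN700 1854 in GRANTA-519, 2560.2 in REC-1, 2607 in SP49, 3064 in HBL-2, 2292 in JVM-2, 2321 in JVM-13, 2062 in Maver-1 and 2987 in Z-138. With DMSO, BIRC5 read 2464 in GRANTA-519, 2108 in REC-1, 2469.8 in SP49, 2964 in HBL-2, 2169.6 in JVM-2, 1379 in JVM-13, 2256 in Maver-1 and 2849 in Z-138. The groups of AFN700 and DMSO arrays overlapped in both genes, and the difference of BIRC5 was -0.41 in GRANTA-519, against -0.13 to 0.75 in the other 7. TPX2, which activates AURKA on the spindle, was at 376 with AFN700 and 805 with DMSO in GRANTA-519 (-1.09), against -0.34 to 0.29 elsewhere. AURKB, the kinase of the passenger complex, read with AFN700 236 in GRANTA-519, 962 in REC-1, 702 in SP49, 315 in HBL-2, 984 in JVM-2, 441 in JVM-13, 251 in Maver-1 and 703 in Z-138. With DMSO, AURKB read 539 in GRANTA-519, 773 in REC-1, 921 in SP49, 1193 in HBL-2, 876 in JVM-2, 172 in JVM-13, 279 in Maver-1 and 653 in Z-138. GRANTA-519, Maver-1 and HBL-2 were the 3 lowest lines with AFN700, of which Maver-1 was low with DMSO too, and the log2 difference was -1.18 in GRANTA-519 and -1.91 in HBL-2.

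The 5 spindle checkpoint genes had a median of -0.57 in GRANTA-519, and all 5 were below 0. BUB1, a checkpoint kinase at kinetochores, read with AFN700 545 in GRANTA-519, 597 in REC-1, 1093 in SP49, 840.3 in HBL-2, 819 in JVM-2, 1043 in JVM-13, 1553 in Maver-1 and 2413 in Z-138. With DMSO, BUB1 read 1051 in GRANTA-519, 859.7 in REC-1, 927 in SP49, 1011 in HBL-2, 1037 in JVM-2, 228 in JVM-13, 1482 in Maver-1 and 2126 in Z-138. In GRANTA-519 BUB1 was at -0.94, and in JVM-13, whose DMSO level was the lowest by far, at 2.18. The probe sets of BUB1 disagree, since the 3 further ones read -0.19, 0.16 and 1.25 in GRANTA-519. BUB3, the partner that brings BUB1 to kinetochores, read with AFN700 2046 in GRANTA-519, 2489 in REC-1, 2685 in SP49, 3585 in HBL-2, 2622 in JVM-2, 2867 in JVM-13, 2112 in Maver-1 and 2915 in Z-138. With DMSO, BUB3 read 2364 in GRANTA-519, 2273 in REC-1, 2738 in SP49, 2475 in HBL-2, 2648 in JVM-2, 3590.5 in JVM-13, 2446 in Maver-1 and 3003 in Z-138. Its log2 difference was -0.21 in GRANTA-519 and -0.33 to 0.53 in the other 7, and JVM-13 was the highest line with DMSO. MAD2L1, the MAD2 protein that inhibits CDC20, was also nearly level in GRANTA-519 at -0.08. BUB1B was at -0.57 there and the kinase TTK at -0.72, and TTK was lower in REC-1, at -1.02.

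The 4 genes of the anaphase-promoting complex and of sister separation had a median of -0.92 in GRANTA-519. CDC20, the activator of the complex that the checkpoint holds back, read with AFN700 334 in GRANTA-519, 749 in REC-1, 696 in SP49, 390.1 in HBL-2, 797 in JVM-2, 905 in JVM-13, 748 in Maver-1 and 594 in Z-138. With DMSO, CDC20 read 743 in GRANTA-519, 855 in REC-1, 662 in SP49, 884 in HBL-2, 827 in JVM-2, 304 in JVM-13, 673 in Maver-1 and 463 in Z-138. GRANTA-519 and HBL-2 were low with AFN700 and not with DMSO, with log2 differences of -1.15 and -1.17. UBE2C, the ubiquitin-conjugating enzyme of the complex, read with AFN700 627 in GRANTA-519, 735 in REC-1, 934 in SP49, 390.1 in HBL-2, 1054 in JVM-2, 1085 in JVM-13, 591 in Maver-1 and 727 in Z-138. With DMSO, UBE2C read 1020.3 in GRANTA-519, 743 in REC-1, 970.1 in SP49, 729.7 in HBL-2, 1128 in JVM-2, 1012 in JVM-13, 639 in Maver-1 and 616 in Z-138. Here HBL-2, at -0.90, was lower than GRANTA-519, at -0.70, and the other 6 lines lay between -0.11 and 0.24. ESPL1, separase, which cuts cohesin, read with AFN700 69.5 in GRANTA-519, 485 in REC-1, 346 in SP49, 398 in HBL-2, 355 in JVM-2, 322 in JVM-13, 418 in Maver-1 and 421 in Z-138. With DMSO, ESPL1 read 307 in GRANTA-519, 688 in REC-1, 496 in SP49, 324 in HBL-2, 468 in JVM-2, 46.4 in JVM-13, 586 in Maver-1 and 326 in Z-138. Its difference of -2.09 in GRANTA-519 is the lowest of the 40 genes, and every other AFN700 array was at 322 or more, while the lowest array of all is again JVM-13 with DMSO. PTTG1, securin, the inhibitor of separase, was at -0.35.

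The 6 kinetochore and centromere genes had the lowest median of any role in GRANTA-519, -1.01, with 4 of the 6 at least 2-fold lower. CENPE, the kinesin that moves chromosomes to the equator, read with AFN700 243 in GRANTA-519, 686 in REC-1, 750.5 in SP49, 519.3 in HBL-2, 374 in JVM-2, 587 in JVM-13, 454 in Maver-1 and 535 in Z-138. With DMSO, CENPE read 492 in GRANTA-519, 728 in REC-1, 715 in SP49, 525.5 in HBL-2, 454 in JVM-2, 356 in JVM-13, 589.8 in Maver-1 and 408 in Z-138. The AFN700 array of GRANTA-519 was the lowest of all 16, and its DMSO array lay in the middle of the 8. NDC80, which gives the microtubule-binding complex of the kinetochore its name, read with AFN700 195 in GRANTA-519, 1194 in REC-1, 1185 in SP49, 1018 in HBL-2, 639.8 in JVM-2, 1061 in JVM-13, 875 in Maver-1 and 611 in Z-138. With DMSO, NDC80 read 466.4 in GRANTA-519, 1346 in REC-1, 1185 in SP49, 870.2 in HBL-2, 661 in JVM-2, 275 in JVM-13, 866 in Maver-1 and 475 in Z-138. The AFN700 array of GRANTA-519 was again the lowest of all 16, and the log2 difference was -1.25, against -0.17 to 1.94 in the other 7. SPC25 and NUF2, subunits of the same complex, were at -1.30 and -0.56 in GRANTA-519. CENPA, the centromeric histone, was at -1.02, against -0.47 to 0.96 in the other 7, and CENPF, a protein of the outer kinetochore, at -0.95, against -0.11 to 0.63. SPC25 was below 0 in 7 of the 8 lines, JVM-13 being the exception.

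The 4 mitotic kinesins had a median of -0.83 in GRANTA-519, with none at least 2-fold lower. KIF20A, a kinesin of the central spindle and of cytokinesis, read with AFN700 244 in GRANTA-519, 561 in REC-1, 800.0 in SP49, 434 in HBL-2, 410.0 in JVM-2, 544 in JVM-13, 503 in Maver-1 and 567 in Z-138. With DMSO, KIF20A read 432 in GRANTA-519, 635 in REC-1, 602 in SP49, 458 in HBL-2, 451 in JVM-2, 128 in JVM-13, 488 in Maver-1 and 365 in Z-138. Its low values were again the treated GRANTA-519 array and, lower, the untreated JVM-13 array. KIF23, a kinesin of the central spindle, was at -0.91, KIF2C, a microtubule depolymerase, at -0.84 and KIF11, which separates the spindle poles, at -0.45. The 7 other proteins of the spindle, chromosomes and cytokinesis had a median of -0.69 in GRANTA-519, within a narrow range of -0.86 in NUSAP1 to -0.46 in CKAP2. TOP2A, the topoisomerase that untangles sister chromatids, read with AFN700 1299.9 in GRANTA-519, 1563 in REC-1, 2912 in SP49, 2922 in HBL-2, 1986 in JVM-2, 2263 in JVM-13, 1997 in Maver-1 and 2551 in Z-138. With DMSO, TOP2A read 2007 in GRANTA-519, 1631 in REC-1, 2329 in SP49, 2184 in HBL-2, 2301 in JVM-2, 835 in JVM-13, 2513 in Maver-1 and 1954 in Z-138. GRANTA-519 was the lowest line with AFN700 and JVM-13 the lowest with DMSO, both below the remaining 14 arrays. NUSAP1, a protein that binds spindle microtubules near chromosomes, read with AFN700 1244 in GRANTA-519, 2329 in REC-1, 2284 in SP49, 1779 in HBL-2, 2331 in JVM-2, 1888 in JVM-13, 2335 in Maver-1 and 2387 in Z-138. With DMSO, NUSAP1 read 2265 in GRANTA-519, 2206 in REC-1, 2222 in SP49, 1749 in HBL-2, 2246 in JVM-2, 1238 in JVM-13, 2704 in Maver-1 and 2265 in Z-138. GRANTA-519 was the lowest line with AFN700 and level with 4 of the others with DMSO, and its log2 difference was -0.86, against -0.21 to 0.61 in the other 7. PRC1, which bundles microtubules between the poles, was at -0.78, the cleavage furrow protein ANLN at -0.77, HMMR at -0.57 and ECT2, the activator of RhoA at the furrow, at -0.69. ECT2 was lower still in JVM-2, at -0.82.

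**Figure D3:**
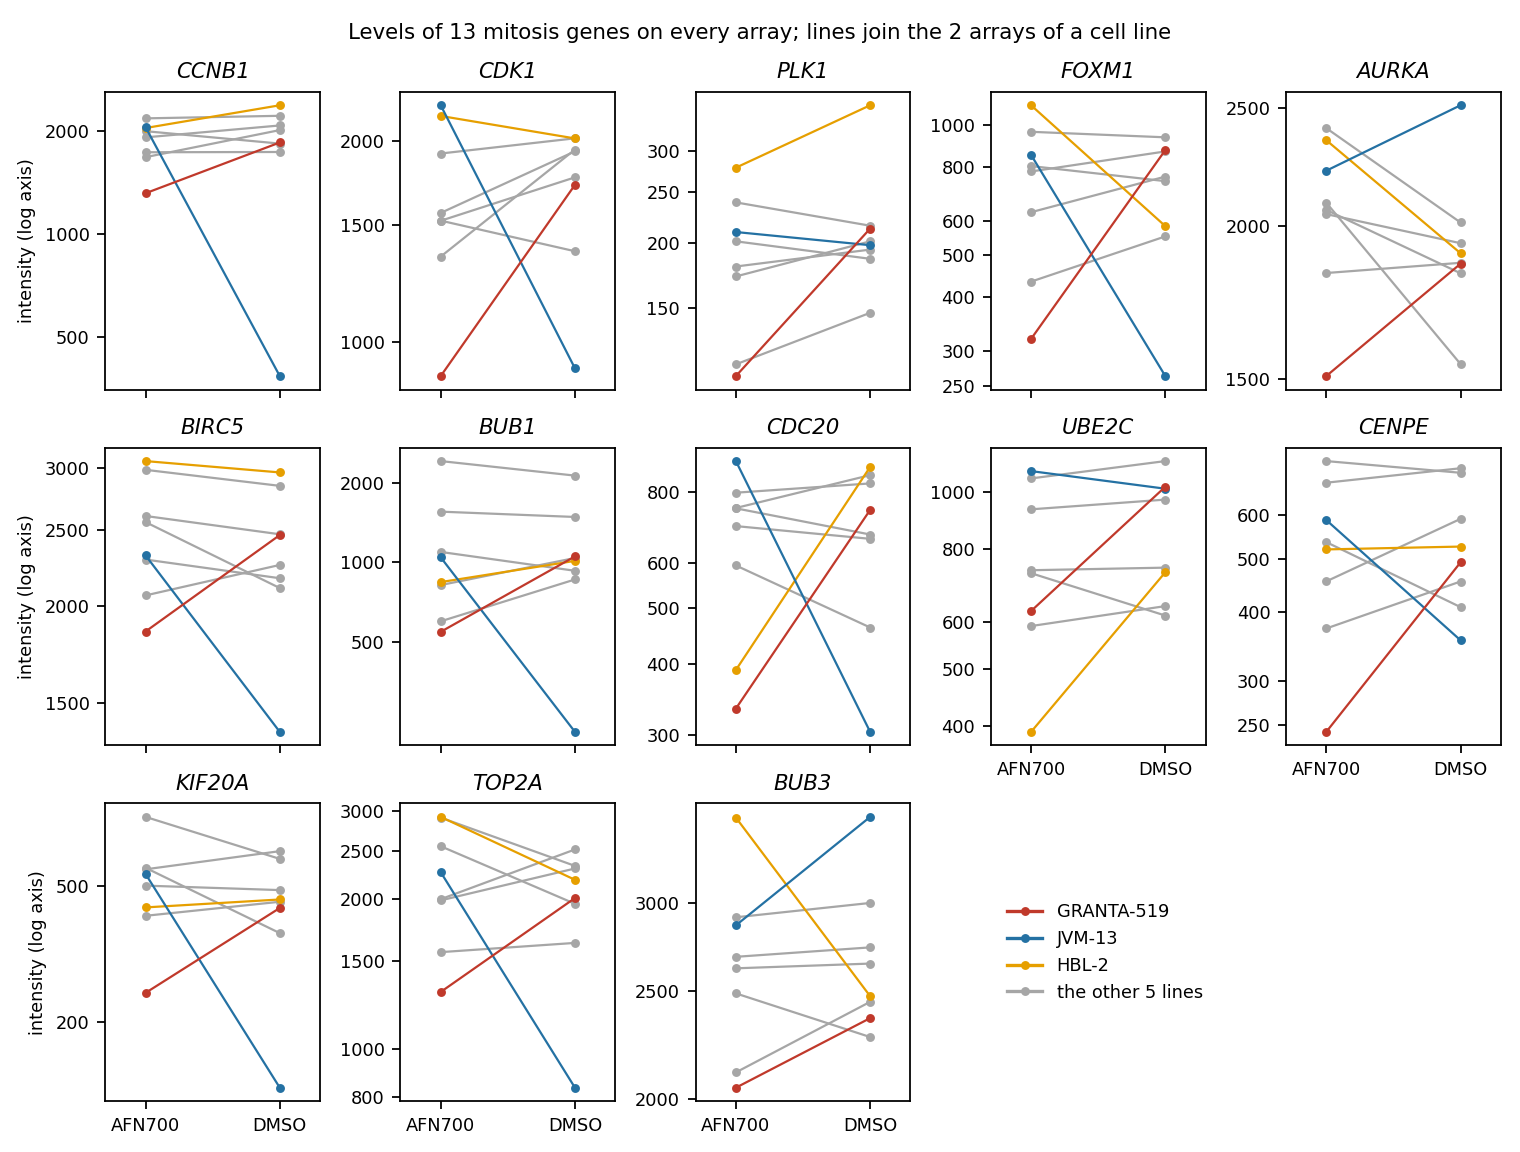
Intensity (log axis) of 13 of the genes on all 16 arrays, AFN700 left and DMSO right, with a line joining both arrays of a cell line. GRANTA-519 (red) has the lowest AFN700 level in 12 of the 13, and JVM-13 (blue) has DMSO levels far below the rest in CCNB1, BUB1, KIF20A and TOP2A but not in AURKA, PLK1, UBE2C and BUB3.

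The next comparison set the AFN700 response of GRANTA-519 against that of the other 7 lines. GRANTA-519 was singled out with earlier results of these data known, so the p-values do not allow for that choice, and its 1 pair of arrays is assumed to vary as the other pairs do. GRANTA-519 had the lowest difference of the 8 lines for 31 of the 40 genes, against 23.3% of all genes tested, and for 23 with arrays centred, against 13.4%. It had the lowest AFN700 level of the 8 lines for 31 of the 40, against 15.0%, but the lowest DMSO level for 1, KIF23, against 6.81%. Its difference lay below the whole range of the 5 lines other than JVM-13 and HBL-2 for 34 of the 40, against 30.1%.

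With limma and the cell line as a block, the response of GRANTA-519 was set against that of the other 7 lines. GRANTA-519 minus the other 7 had a median of -0.83 over the 40 genes and was below 0 for 38, with NEK2 and INCENP above 0. The median over all genes was -0.14, so most of all genes were below 0 as well. For this and the later limma comparisons the share of all genes below 0 was not counted, and their median is given instead. No gene of the 12305 passed an adjusted p of 0.05 (0.0% of all genes, 92 higher and 492 lower at an unadjusted p under 0.05), and so none of the 40 did. The split of all genes at that p was 157 higher and 312 lower with arrays centred and 262 and 448 with quantile normalization. At an unadjusted p under 0.05, 8 of the 40 were lower (NUSAP1, CENPF, TPX2, CCNB2, FOXM1, NDC80, CENPE and ESPL1), against 4.0% of all genes. The 5 largest were ESPL1 at -2.30 ± 0.96 (SE, adjusted p = 0.954), FOXM1 at -1.72 ± 0.64, NDC80 at -1.58 ± 0.63, CDC20 at -1.25 ± 0.69 and KIF20A at -1.21 ± 0.69, all with the same adjusted p. The smallest adjusted p of the 40 was 0.715, for both CENPF at -1.17 ± 0.32 and NUSAP1 at -0.96 ± 0.26.

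The calls depended on which lines gave the spread and on the scaling. Without JVM-13, 26 of the 40 were lower at an unadjusted p under 0.05, against 8.18% of all genes, and the smallest adjusted p of the 40 was 0.0932. With arrays centred as well, 14 of the 40 were lower at that p, against 5.44% of all genes, and the smallest adjusted p was 0.189. Without JVM-13 and HBL-2, 29 of the 40 were lower at an unadjusted p under 0.05 (11.2% of all genes) and 6 passed an adjusted p of 0.05 in the limma fit, all lower, against 0.902% of all genes lower. These 6 were ESPL1 at -1.78 ± 0.32 (SE), FOXM1 at -1.32 ± 0.22, NDC80 at -1.28 ± 0.22, CDC20 at -1.21 ± 0.23, AURKB at -1.19 ± 0.26 and NUSAP1 at -0.87 ± 0.15, with limma adjusted p from 0.0196 to 0.0489. Both the 1 line tested and the 2 lines left out were chosen with earlier results known and no member passed with any single line left out, so these 6 are a description of that selection of lines. JVM-13 had the largest gap in overall level between its arrays and HBL-2 the largest gap in the actin ratio, and Maver-1, with the highest actin ratios, was kept. The median over the 40 was -0.75 in the fit without both lines, against -0.09 over all genes, which thus leaned lower too. That fit used arrays as deposited, with a median log2 level in GRANTA-519 of 7.825 with AFN700 and 7.938 with DMSO. A centred form of it was not run.

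**Figure D4:**
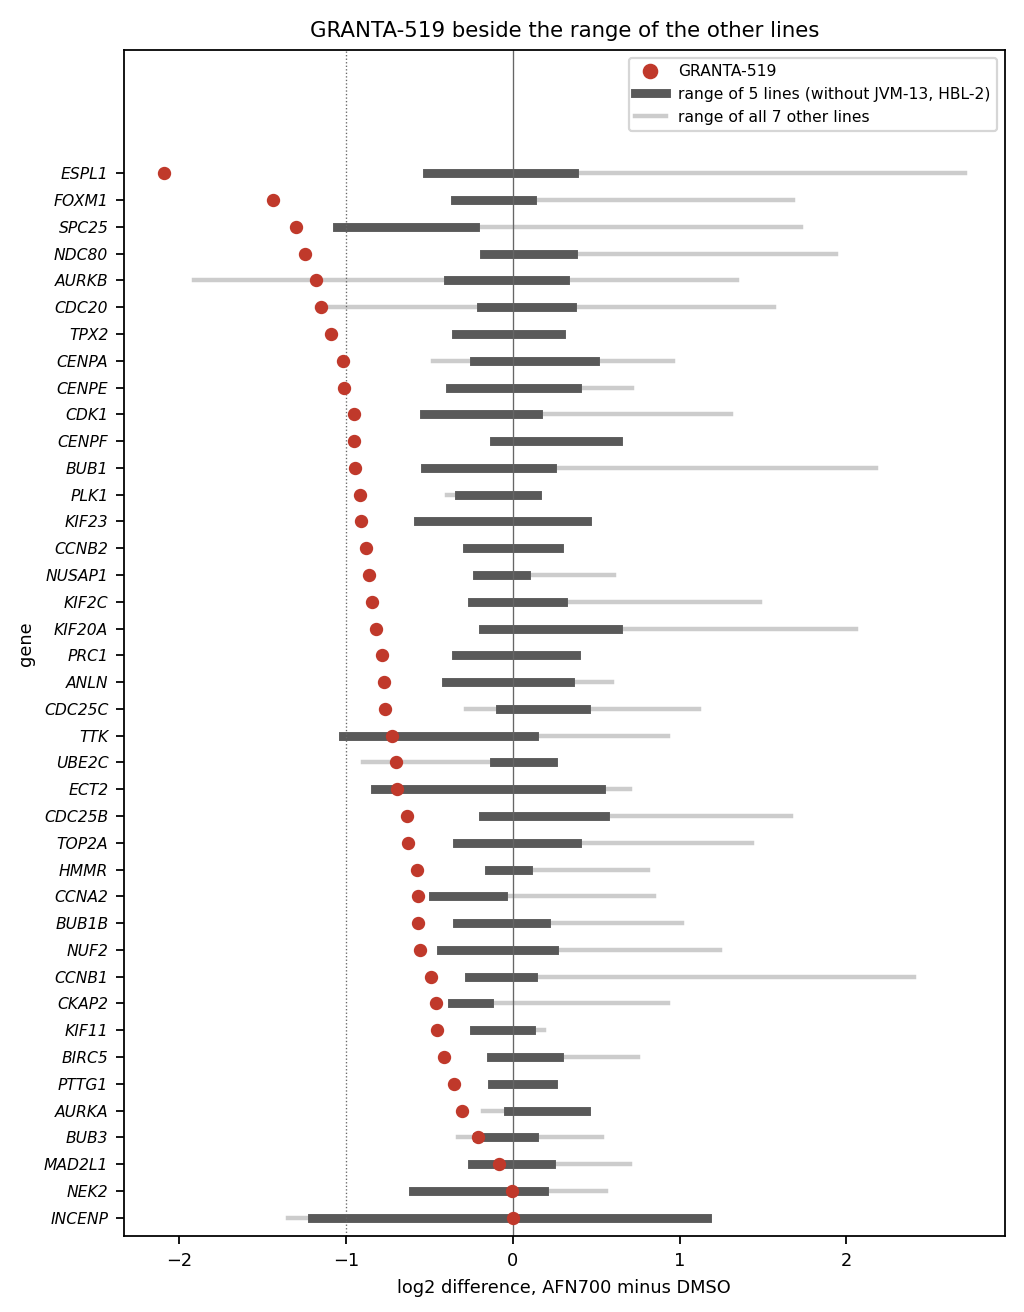
Log2 difference, AFN700 minus DMSO, of the 40 genes in GRANTA-519 (red points, ordered by size), beside the range of the 5 lines other than JVM-13 and HBL-2 (dark bars) and of all 7 other lines (pale bars); the dotted line marks a 2-fold decrease. The points run from -2.09 in ESPL1 to 0.00 in INCENP, and 34 of 40 lie below the dark bars.

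Outside GRANTA-519 the genes showed no common direction. Over the 7 other lines the limma response had a median of 0.06 over the 40 genes and 0.08 over all genes, with 15 of the 40 below 0. No gene of the 12305 passed (0.0%, 865 higher and 185 lower at an unadjusted p under 0.05). That split of all genes was 408 higher and 463 lower with arrays centred and 539 and 435 with quantile normalization. Of the 40, CDC25B, the phosphatase that activates CDK1, was at 0.47 ± 0.19 (SE, adjusted p = 0.569), higher in 6 of the 7 lines. The other 4 of the 5 largest were KIF20A at 0.39 ± 0.24, NDC80 at 0.33 ± 0.22, FOXM1 at 0.28 ± 0.23 and TOP2A at 0.28 ± 0.17. Without JVM-13 the median over the 40 was -0.06, with 28 below 0, against 0.05 over all genes. With arrays centred the median was -0.07 over the 40 and -0.05 over all genes. The sign of this small value over the 40 thus turned on that line and on the scaling.

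Over all 8 lines the response was -0.03 in the median of the 40 genes and 0.06 in that of all genes, with 25 of the 40 below 0. No gene of the 12305 passed in limma (0.0%, 791 higher and 215 lower at an unadjusted p under 0.05), and none of the 40 had an unadjusted p under 0.05. The split of all genes was 412 higher and 494 lower with arrays centred and 554 and 458 with quantile normalization. The 5 largest were SPC25 at -0.36 ± 0.27 (SE, adjusted p = 0.722), CDC25B at 0.33 ± 0.19 (adjusted p = 0.666), KIF20A at 0.24 ± 0.25, TPX2 at -0.22 ± 0.14 and AURKB at -0.21 ± 0.28. Without JVM-13 the median over the 40 was -0.15, with 34 below 0, against 0.03 over all genes. Without GRANTA-519 the median was 0.06 over the 40 and 0.08 over all genes.

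The response of the sensitive lines was then set against that of the insensitive lines. For CCNA2 the AFN700 and DMSO levels were 1559 and 2167 in REC-1 and 1865 and 2349 in SP49, differences of -0.47 and -0.33, against -0.57 to 0.85 in the 6 insensitive lines. The insensitive lines thus spanned the sensitive ones on both sides. Sensitive minus insensitive, the median over the 40 genes was -0.08 and that over all genes -0.03, and no gene of the 12305 passed in limma (0.0%, 134 higher and 48 lower at an unadjusted p under 0.05, none of them among the 40). The 5 largest were ESPL1 at -0.57 ± 0.89 (SE, adjusted p = 1.0), SPC25 at -0.48 ± 0.63, TTK at -0.46 ± 0.49, CCNA2 at -0.41 ± 0.32 and NEK2 at -0.38 ± 0.33. The median of the 40 was 0.09 without JVM-13 and 0.04 with arrays centred. With quantile normalization 87 genes were higher and 68 lower at an unadjusted p under 0.05.

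On the DMSO arrays the 40 genes had a narrower spread between lines than all genes had, in the median. These sets were not matched by intensity. The filter was passed on at least 8 arrays by 39 of the 40, against 10174 of all 12305 genes. Over the 8 DMSO arrays the highest level was a median of 2.84 times the lowest for the 40 genes, against 4.28 times for all genes tested, after the pseudocount was added. Without JVM-13 these were 1.87 and 3.04 times. KIF11 varied least, by 1.36 times over 8 lines, and ESPL1 most, by 13.9 times, of which the low DMSO level of JVM-13, 46.4, was one end. JVM-13 had the lowest DMSO level for 28 of the 40 genes, against 32.4% of all genes. Yet AURKA, BUB3 and ECT2 were highest of the 8 lines in that array, with ECT2 at 1188 against 643 to 1053 elsewhere, and the other 9 (TPX2, UBE2C, PTTG1, CCNB2, PLK1, PRC1, TTK, KIF23 and INCENP) lay within the range of the remaining lines.

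By sensitivity class, the DMSO level of sensitive minus insensitive lines had a median log2 difference of 0.16 over the 40 genes and 0.07 over all genes, with 9 of the 40 below 0. With arrays centred the median over the 40 was -0.0040. NDC80 read 1346 in REC-1 and 1185 in SP49, against 466.4 in GRANTA-519, 870.2 in HBL-2, 661 in JVM-2, 275 in JVM-13, 866 in Maver-1 and 475 in Z-138. Its difference of 1.17 ± 0.45 (SE, limma adjusted p = 0.861, unadjusted p = 0.0267) was the largest of the 40. NDC80 was also the only 1 of the 40 with an unadjusted p under 0.05. The other 4 of the 5 largest were ESPL1 at 1.08 ± 0.82, KIF2C at 0.86 ± 0.48, KIF20A at 0.79 ± 0.52 and TTK at 0.78 ± 0.53. One gene of the 12305 passed (0.00813%, 364 higher and 338 lower at an unadjusted p under 0.05), and it was not among the 40. With arrays centred the split was 280 higher and 389 lower.

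Other probe sets of the same genes gave a check within each array. Of the 40 genes, 20 had 35 further probe sets above the filter. In GRANTA-519 these 35 had a median difference of -0.51, 27 were below 0, and the median gap to the chosen probe set was 0.21. At least 2-fold lower there were 5, and 1 was at least 2-fold higher. The 8 that were not below 0 belonged to BUB1, BUB3, CKAP2, ECT2 and MAD2L1 and had mean intensities of 29.8 to 362, against 18.7 to 2397 for the 27. ESPL1, CDK1, CCNB1, TOP2A and NUSAP1 had all their further probe sets below 0 in GRANTA-519. In the other lines the number below 0 was 27 in JVM-2, 26 in HBL-2, 25 in SP49, 24 in Maver-1, 23 in REC-1, 19 in Z-138 and 14 in JVM-13. Further probe sets of all genes were not counted, so these counts have no background. In HBL-2 the further probe sets had a median of -0.74 and 14 of the 35 were at least 2-fold lower, with a median gap to the chosen probe set of 0.99, beside the actin ratios of 16.7 with AFN700 and 1.90 with DMSO. In JVM-13 their median was 0.34, and 26 of the 35 had the sign of the chosen probe set.

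**Figure D5:**
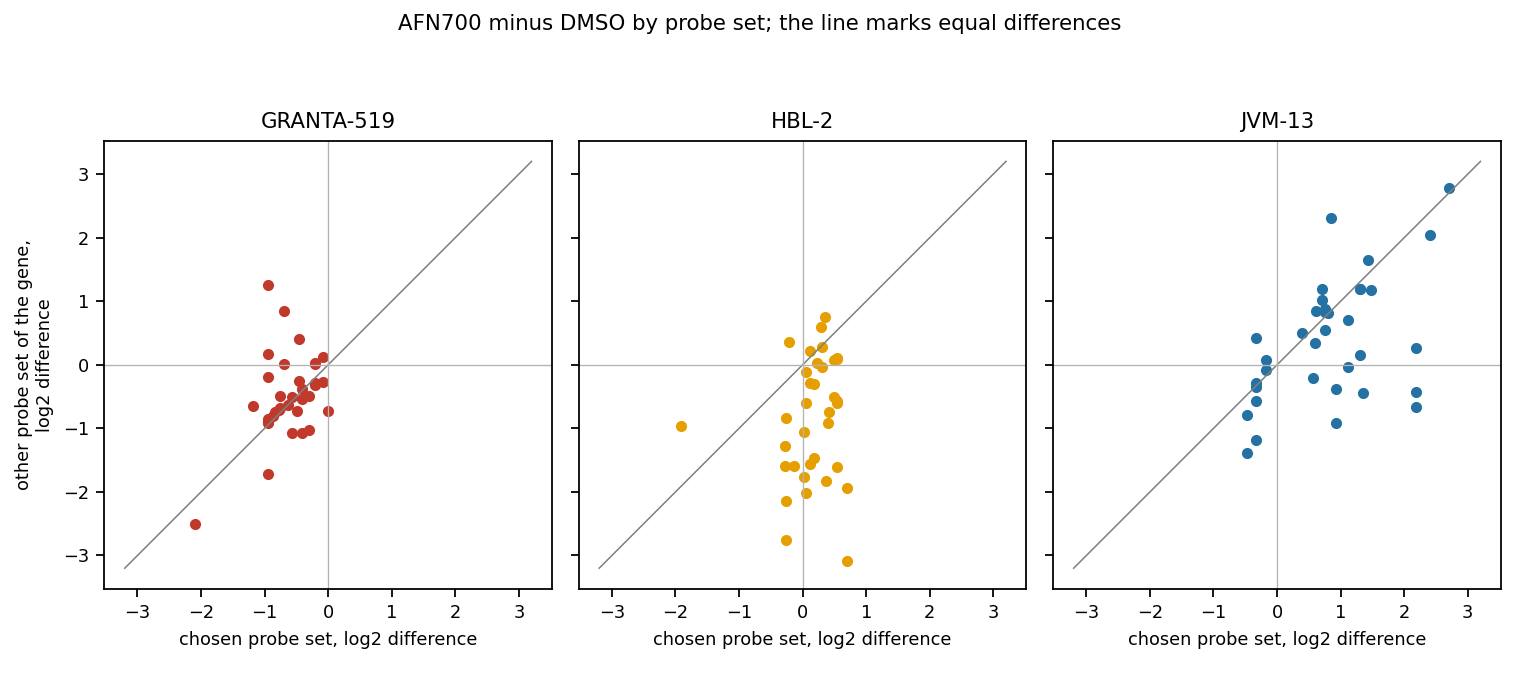
Log2 difference, AFN700 minus DMSO, of the 35 further probe sets (vertical) against that of the chosen probe set of the same gene (horizontal) in GRANTA-519, HBL-2 and JVM-13; the diagonal marks equal differences. The median gap between both values is 0.21 in GRANTA-519 and 0.99 in HBL-2, where many points lie far below the diagonal.

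The size of the difference in GRANTA-519 was then set beside the promoter letters. The 16 genes with TTTGAA or TTCGAA in the 250 bases had a median difference of -0.83 (-2.09 to 0.00), and the 17 without had -0.76 (-1.25 to -0.002). The 24 genes with CCAAT had a median of -0.84 and the 9 without one -0.76. The gap was widest for both motifs together, -0.89 in the 14 genes with both and -0.76 in the 19 others. These medians lay close together beside the wide ranges, and their differences were not tested. Among the promoters printed above, ESPL1 and KIF11 hold both motifs, at -2.09 and -0.45, and CDC25B, which holds neither, was at -0.63.

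Further genes of the cell cycle were lower in GRANTA-519 along with the 40, on the same pair of arrays and in lists chosen with earlier results known. Of 85 other mitosis genes, 76 were below 0 there (55.0% of all genes tested) and 23 were at least 2-fold lower (6.07%). Their median was -0.59, against -0.05 over all genes. None of the 85 passed an adjusted p of 0.05 in limma for GRANTA-519 minus the other 7. The 4 of smallest p were the proliferation antigen MKI67 at -1.42 ± 0.40 (SE), CENPU at -1.18 ± 0.33, SPAG5 at -1.21 ± 0.35 and the kinesin KIFC1 at -1.49 ± 0.44. Of 38 DNA replication and E2F genes, which share CDC25A with the list before, 37 were below 0 in GRANTA-519 (55.0% of all genes). At least 2-fold lower were 13 (6.07%), and the median was -0.85. TYMS, which makes thymidylate, was at -1.23 ± 0.35 and the helicase subunit MCM2 at -1.38 ± 0.43 against the other 7 lines, without passing. In JVM-13 the medians of both lists were 0.91 and 1.04, beside 0.27 for all genes, and with arrays centred 0.25 and 0.37, beside -0.39. The 15 CDK inhibitors and p53 targets had a median of 0.14 in GRANTA-519. Of these, 4 were below 0 (55.0% of all genes) and 1 was at least 2-fold higher (255 of all 12305 genes).

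NF-kB reporter genes, which report on the pathway that AFN700 inhibits, were below 0 in GRANTA-519 for 11 of 11, against 55.0% of all genes. Their median was -0.95, with TRAF1 at 25.7 with AFN700 and 256 with DMSO. They were also below 0 for 11 of 11 in REC-1 (median -0.87, 45.1% of all genes) and in SP49 (median -0.997, 44.3%). In HBL-2 (median -0.75, 39.1%) and JVM-2 (median -0.80, 48.5%) they were below 0 for 10 of 11. The 40 mitosis genes had medians of -0.17 in REC-1, with 30 below 0, and 0.02 in SP49, with 19. Those in HBL-2 were 0.04, with 18 below 0, or -0.36 with the mean of all probe sets, and in JVM-2 -0.13, with 34 below 0. The reporters in the remaining lines were as follows. In Z-138 their median was -0.11 and in Maver-1 0.06. In JVM-13 it was 0.998, with 1 of the 11 below 0 (38.7% of all genes), or 0.33 with arrays centred. The relation between these lists was not tested.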

How the data were processed

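The deposited values are probe set intensities on a linear scale, which the authors computed with MAS5, per the submitters' processing notes (version and build not given in the sources used here). Of 54675 probe sets, 41097 carry 1 gene in the platform annotation, 1801 several, and 11777 are unlisted. Intensities were turned to log2(value + 3.3), a pseudocount set at the 25th percentile of the whole table, so fold changes of dim genes are understated. Genes that exceeded the 60th percentile on 2 or more arrays were tested with limma 3.58.1 in R 4.3.3 (lmFit and eBayes with trend, Benjamini-Hochberg over 12305 genes, two-sided), with the line as a block because both arrays of a line are the same cells. P-values measure the spread between lines. A 2-fold difference and an adjusted p of 0.05 were the thresholds. All else used Python 3.11.15 with pandas 2.3.3, numpy 2.4.6 and matplotlib 3.10.9. The tests were checked on simulated data with independent noise for each gene. That check did not cover shifts of a whole array or differences in RNA quality.

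The members and lists were chosen with earlier results of these data known. The lists were other mitosis genes, DNA replication and E2F genes, CDK inhibitors and p53 targets, NF-kB reporters, and markers of B cells, mantle cell lymphoma, T cells, myeloid cells, fibroblasts and epithelium. All 40 members could be named, 13 with every array by rule. ESPL1, NDC80, AURKB and NUSAP1 were added to these after their values were seen. Also named were the 5 largest differences per comparison where none passed and up to 4 genes of smallest p from another list. Alternatives were pseudocounts of 1 and 16, centred arrays, quantile normalization, other filters, the mean of all probe sets, no trend, no line block, each line left out, JVM-13 and HBL-2 left out, and, chosen after seeing the data, centred arrays without JVM-13. Scan dates and batches were not used here.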

Additional observations from a re-analysis of the deposited data

Results flagged for a closer look

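Among the 6 insensitive lines, 40 sets of values were examined for a line far from the others (a gap over range past Dixon's 95% critical value), and 8 had one. The sets come from the same arrays, and a gene's difference is computed from its levels, so they are not independent. A rate of about 1 set in 20, which holds for each set alone, is therefore no measure of the 8. In 7 of these 8 sets the line was JVM-13. Its AFN700 minus DMSO difference was 2.40 in CCNB1, against -0.49 to 0.12 in the other 5 lines, and 2.18 in BUB1, against -0.94 to 0.18. Its DMSO level on the log2 scale was 8.60 in CCNB1, against 10.77 to 11.22, and 8.06 in FOXM1, against 9.196 to 9.78. It was 7.85 in BUB1, against 9.99 to 11.06, 7.04 in KIF20A, against 8.52 to 8.94, and 9.71 in TOP2A, against 10.94 to 11.30. The remaining set was the BUB3 difference in HBL-2, 0.53, against -0.32 to -0.01. The median log2 level over the genes tested was 7.92 with AFN700 and 7.25 with DMSO in JVM-13, and its part in these values was not tested.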

How the results depend on the processing

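Over all results and alternatives, 325 summary values stayed and 28 moved. A count of genes stayed if it kept within a fixed ratio, or if it was 0 both times. A median stayed if it shifted by less than 0.351, the SD over the 7 lines other than GRANTA-519, so a small median could stay and change sign. Of the values of single genes, 625 kept their direction and side of the threshold, 11 reversed and 4 passed in an alternative alone. No member passed in a main fit, so counts of members that passed and sides of the threshold had little room to move. Over 8 lines 37 genes passed without JVM-13 and HBL-2, 8 with centred arrays and no JVM-13, and 0 to 10 with a line left out, 10 without JVM-13, none of them a member, and the members' median then ran from -0.154 to 0.060. KIF20A turned to -0.008 without both, -0.018 without JVM-13 and -0.035 with centred arrays and no JVM-13 (up to 0.393 with another line left out), and AURKB to 0.030 without HBL-2 (down to -0.435). For GRANTA-519 minus the other 7, 6 genes passed with a pseudocount of 16, 1 without the trend, 0 to 1 with a line left out, and 118 without JVM-13 and HBL-2, among them 6 of the 40. Its median over the members ran from -0.891 to -0.748 with a line left out, and was -0.59 with centred arrays, -0.60 with centred arrays and no JVM-13, -0.676 with quantile normalization and -0.68 with the mean of all probe sets. BUB1 turned to 0.357 with the mean of all probe sets and BUB3 to 0.027 with centred arrays. Over the 7 other lines 55 genes passed without both lines, 1 with centred arrays and no JVM-13 and 0 to 2 with a line left out, where the median ran from -0.063 to 0.106, and FOXM1 turned to -0.122 without both. For sensitive minus insensitive responses no gene passed with a line left out and the median ran from -0.254 to 0.085, while ESPL1 turned to 0.143 without both lines, TTK to 0.110 without REC-1 (-1.039 without SP49) and NEK2 to 0.037 with the probe set mean. For DMSO levels 3 genes passed with a pseudocount of 16, 5 without a filter, 8 without the trend, and 0 with the filter on at least 8 arrays, the probe set mean, both lines left out or centred arrays and no JVM-13. With a line left out 0 to 46 passed (46 without SP49, 3 without GRANTA-519 or JVM-2, 0 without REC-1, HBL-2, Z-138 or JVM-13), the median ran from 0.104 to 0.265, and TTK turned to -0.039 without REC-1 (1.596 without SP49). The median in HBL-2 was -0.36 with the probe set mean, and in JVM-13 it was 0.16, with 8 genes at least 2-fold higher, on centred arrays. The cause was not tested. Without the line as a block, 0 genes passed in each comparison of AFN700 with DMSO. Leaving out GRANTA-519 gives no value for its own comparison. Limits are that each line has 1 array per treatment, that dim probe sets such as INCENP carry little signal over background, and that GRANTA-519 alone had its medium.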

Other observations

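CDKN1C, an inhibitor of cyclin-dependent kinases, was 0.96 ± 0.23 higher on the log2 scale with AFN700 than with DMSO over 8 lines (SE, limma adjusted p = 0.464, unadjusted p = 0.00132), and MDM2, a p53 target, 0.17 ± 0.07 (adjusted p = 0.567). In DMSO arrays CDKN1A, the p21 inhibitor of cyclin-dependent kinases, differed by -3.56 ± 1.29 between sensitive and insensitive lines (limma adjusted p = 0.840), and the replication factor subunit RFC3 by -0.72 ± 0.16 (limma adjusted p = 0.425). None passed the threshold.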
